A study of Mus musculus with 21 samples.

Results

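The genotype by diet interaction asks whether empagliflozin (EMPA) shifted left ventricular transcripts by the same amount in R403Q hearts as in wild-type (WT) hearts. For each gene it is the log2 difference between EMPA and control diet (CD) in R403Q hearts minus the same difference in WT hearts, so that a positive value means a level that moved further upward, or less far downward, on EMPA when the mutation was present. Every gene with enough counts belonged to the comparison, which took in 17309 of the 55450 genes of the table. Of those 55450 genes, 32463 had at least 1 count in some mouse. No gene passed the test at an adjusted p of 0.05, and the account that follows gives how precisely that was measured, which genes came nearest, and how the drug's own effect looked side by side in the 2 genotypes.

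All 21 mice were 12-week-old males of strain 129S6/SvEv. The WT-CD group held 5 wild-type littermates on the control diet, and the WT-EMPA group held 5 wild-type littermates on the same diet with EMPA at 0.15 mg/g. The R403Q-CD group held 7 mice labelled Myh6+/R404Q on the control diet, and the R403Q-EMPA group held 4 mice of that genotype on the EMPA diet. The genotype is 1 altered copy of Myh6, the alpha-myosin heavy chain of the mouse ventricle, carried in the gene's own locus in every cell and called R403Q after the human residue. The labels give each mouse's cage, with the CD mice in 4 cages and the EMPA mice in 3 others, so an effect of diet and an effect of cage cannot be told apart within a genotype. In the interaction the 2 genotypes are set against each other under the same diet. All 4 CD cages held both genotypes, but 1 EMPA cage held WT mice only, WT-EMPA replicates 1 to 3. Only WT-EMPA replicates 4 and 5 shared a cage with R403Q mice, so on EMPA genotype and cage cannot be fully told apart. By the study's methods the hearts were taken after 2 weeks of diet, while the labels give 16 weeks for the study as a whole, and the protocol texts of both list the other 3 groups without WT-EMPA, which the sample labels name. The p-values measure the spread between single mice.

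EMPA inhibits SGLT2, the sodium and glucose cotransporter of the kidney tubule, and the resulting loss of glucose in urine moves the body toward a fasting-like state with more use of fatty acids and ketone bodies. Mutations such as R403Q alter the motor of the sarcomere, raise its demand for ATP and lead to hypertrophic cardiomyopathy, in which the ventricle re-expresses stress genes such as the natriuretic peptides. The interaction sets the effect of the drug in hearts that carry the mutation against its effect in hearts that do not.

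The libraries held 23491535 to 43539684 counts each. R403Q-CD replicate 2 stood apart, with a score of 81.8 on a first component that took 27.6% of the variance, and a median Spearman correlation with the other libraries of 0.968, against 0.986 for R403Q-CD replicate 5 and 0.988 or more elsewhere. The cardiomyocyte markers summed to 59685.6 to 105087 CPM, the counts scaled to a library of fixed size, over all mice, and the lowest sum was that of R403Q-CD replicate 2. Markers of lung and thymus reached at most 3.85 CPM in sum. Slc5a2, which encodes SGLT2 itself, had 0 or 1 counts per library in every group and was not testable.

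Across all 17309 genes, edgeR's quasi-likelihood test called 0 interactions (0% of the genes tested), with a smallest Benjamini-Hochberg adjusted p of 0.537. DESeq2 and limma voom also called 0, with smallest adjusted p of 0.0788 and 0.959. At an unadjusted p under 0.05, edgeR listed 567 genes (3.28% of those tested), 252 with a positive (1.46%) and 315 with a negative interaction (1.82%), where 5% would be listed if no gene differed. The histogram of p-values accordingly lacked a peak near 0 for the interaction, while EMPA within R403Q hearts (13.4% of genes at an unadjusted p under 0.05), EMPA within WT hearts (11%), R403Q on CD (20.9%) and R403Q on EMPA (14.7%) all exceeded 5%.

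**Figure D1:**
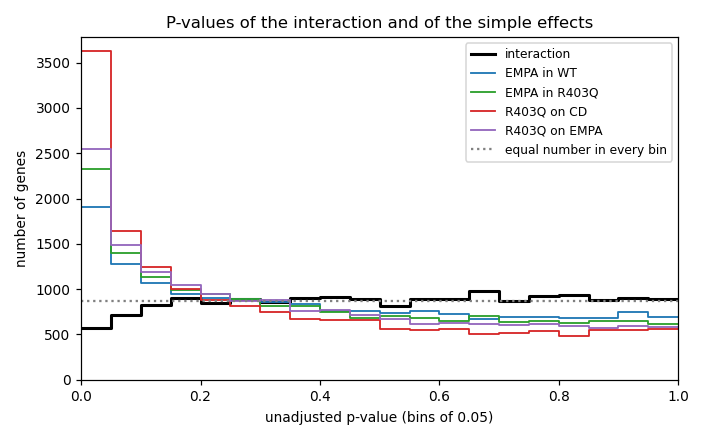
Number of genes in each interval of edgeR's unadjusted p-value (horizontal axis, 0 to 1) for the interaction and for its 4 component comparisons, with the line at the count an even spread would give. The first interval holds 567 genes for the interaction, below the line, and more than the line in each component.

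The interaction is built from 4 group means and so carried a wider error than any of its parts. Its median standard error was 0.177 on the log2 scale, against 0.125 for EMPA in R403Q, 0.126 for EMPA in WT, 0.117 for R403Q on CD and 0.134 for R403Q on EMPA. The median size of the interaction was 0.12, and 414 genes had an estimate beyond 1 in either direction. For 13197 genes (76.2%) the 95% interval of the interaction lay wholly within a 2-fold difference. Among the 9405 genes with a mean of at least 10 CPM that number was 9162 (97.4%). The median half-width of the interval was 0.37, about the SD of the EMPA effect across genes, which was 0.33 in R403Q and 0.30 in WT. For a gene with the median interval, a difference between genotypes of the size of a typical EMPA effect was thus not detectable with these mice, while genes with narrower intervals allowed smaller ones.

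The EMPA effect in R403Q hearts and that in WT hearts share no mouse, so they can be set beside each other across genes as a description. Over the 17309 genes, which are not independent replicates, the 2 effects had a Pearson correlation of 0.36 and a Spearman correlation of 0.38, and 64.8% of genes had the same sign. Among genes with a mean of at least 10 CPM the Pearson correlation was 0.61. Of the 1907 genes with an unadjusted p under 0.05 for EMPA in WT, 1649 (86.5%) had the same sign in R403Q, with a median effect in the WT direction of 0.28 in WT and 0.15 in R403Q. Of the 2322 such genes for EMPA in R403Q, 1982 (85.4%) had the same sign in WT, with medians of 0.34 in R403Q and 0.15 in WT. In both cases the second median comes from mice not used to pick the genes, while the first is raised by the picking. The 585 genes listed in both genotypes had the same sign in 579 cases. The diets sat in different cages for both genotypes, so cage is shared by the 2 effects.

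**Figure D2:**
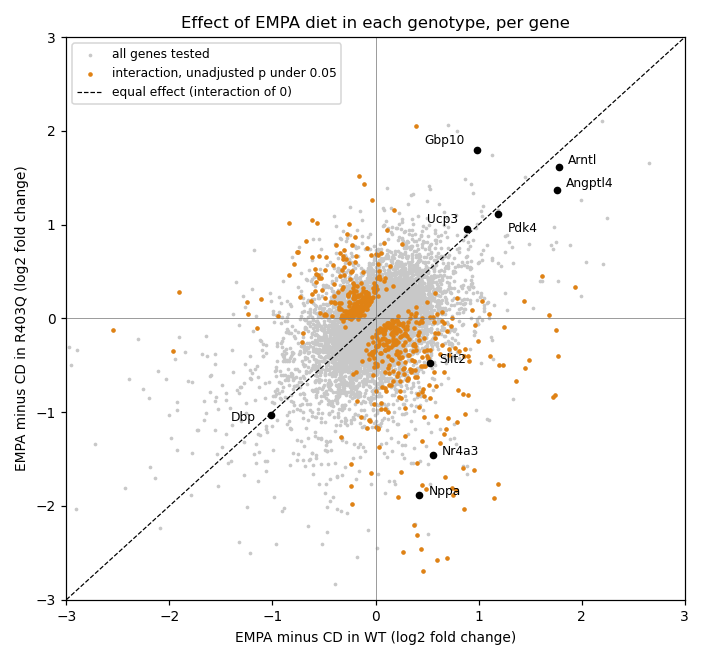
Log2 EMPA effect in WT hearts (horizontal axis) against that in R403Q hearts (vertical axis), 1 point per gene, with the line of equal effects. Pdk4 and Angptl4 lie near the line far from 0, Nr4a3 and Nppa lie below it, and 14 genes fall outside the axis limits of 3.

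Pdk4, Angptl4 and Ucp3, genes of fuel use, and Arntl and Dbp, genes of the clock, had EMPA estimates of the same sign in both genotypes. None passed the test in either genotype, and the intervals of their interactions were wide. The 6 markers of red blood cells had positive EMPA estimates in both genotypes too, with medians of 0.65 in R403Q and 0.64 in WT, and their part in these estimates was not tested. Pdk4 encodes the kinase that switches off pyruvate dehydrogenase and so spares glucose. Its level was 918 to 3037 CPM in WT-CD, with 1018, 1527 and 2262 between, and 6182, 3079, 3829, 2174 and 4745 CPM in WT-EMPA. In R403Q-CD it was 642 at the lowest, 1436 at the median and 3132 CPM at the highest, and in R403Q-EMPA it was 2802, 3561, 4391 and 4969.6 CPM. In both genotypes the EMPA mice were mostly above the CD mice with some overlap. The EMPA effect was 1.11 in R403Q and 1.19 in WT, and the interaction was -0.08 with a 95% interval of -1.18 to 1.03. Neither effect passed the test alone (edgeR adjusted p = 0.217 and 0.271).

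Angptl4, a secreted inhibitor of lipoprotein lipase and a target of the PPAR receptors, separated the diets fully in both genotypes. Its levels were 22.9, 7.57, 19.7, 19.9 and 8.15 CPM in WT-CD and 63.8, 33.2, 69, 28.8 and 69 CPM in WT-EMPA. In R403Q-CD they ran from 4.85 through a median of 19.7 to 29 CPM, and in R403Q-EMPA they were 41.8, 58.8, 51.8 and 45.4 CPM. Every EMPA mouse of R403Q genotype was above every R403Q-CD mouse, and the same held in WT. The effects were 1.37 in R403Q and 1.76 in WT (edgeR adjusted p = 0.143 and 0.126), and the interaction was -0.39 (-1.48 to 0.70), or -0.21 without WT-CD replicate 2 and -0.22 without WT-CD replicate 5. Ucp3, a mitochondrial carrier that goes with fatty acid use, had effects of 0.95 and 0.89 and an interaction of 0.06 (-0.78 to 0.91).

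The list of 19 PPAR alpha targets tested had a median EMPA effect of 0.34 in R403Q and 0.36 in WT, with 14 and 11 members positive at an unadjusted p under 0.05 (7.06% and 5.94% of all genes), and a median interaction of -0.05 with 0 members listed in either direction. With 1 mouse left out that median ran from -0.13 to 0.03, and it was 0.06 with cage as a block. Fatty acid oxidation enzymes were positive for EMPA in 24 of 24 cases in R403Q, with a median of 0.24, and in 20 of 24 in WT, with a median of 0.16. Their median interaction was 0.06, and it was -0.02 without R403Q-CD replicate 2 and -0.08 without R403Q-CD replicates 2 and 5. Of the other lists of fuel use, 3 had EMPA medians on opposite sides of 0 in R403Q and WT, at 0.05 and -0.09 for the TCA cycle, 0.07 and -0.06 for pyruvate dehydrogenase, and 0.11 and -0.02 for branched-chain amino acid breakdown. Glycolysis had -0.05 and -0.08, and ketone body use had 0.15 and 0.00. Over all genes the medians of both EMPA effects and of the interaction were -0.00, and 8626 of 17309 interactions were positive.

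Among clock genes, Arntl and Dbp had large EMPA estimates that did not pass the test. Arntl, the activator at the core of the circadian loop, was at 4.17, 2.15, 1.48, 2.63 and 1.27 CPM in WT-CD and at 11.9, 2.49, 13.5, 1.98 and 10.0 CPM in WT-EMPA. In R403Q-CD it ran from 1.27 through 2.46 to 6.81 CPM, and in R403Q-EMPA it was 3.35, 4.32, 17.1 and 12.8 CPM. In each EMPA group some mice were far above the CD range and others within it. The EMPA effects were 1.61 and 1.78, and the interaction of -0.17 had an interval from -1.77 to 1.44. Dbp, an output gene of the same loop, lay in the other direction by nearly equal amounts, -1.03 in R403Q and -1.02 in WT, with an interaction of -0.02 (-1.0 to 0.97). Over the 20 clock genes tested the median EMPA effect was -0.24 in R403Q and -0.25 in WT, and the interaction median was 0.07. In R403Q 3 of the 20 were positive and 9 negative at an unadjusted p under 0.05 (7.06% and 6.36% of all genes), in WT 3 and 8 (5.94% and 5.08%), and 0 were called for EMPA by edgeR in either genotype. The hour at which each mouse was killed is not given in the sources used here.

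EMPA within WT called 5 genes (0.0289% of those tested) and EMPA within R403Q called 2 (0.0116%), with no gene in common. DESeq2 called 110 and 151. Leaving out 1 mouse at a time gave 0 to 12 calls in each genotype, with 0 in WT without WT-CD replicate 1, 3 or 5 or WT-EMPA replicate 3 or 5, and 0 in R403Q without R403Q-CD replicate 5 or 7 or R403Q-EMPA replicate 2 or 3. With library size alone WT had 0 calls, and with only the cages that held both genotypes R403Q had 0. These 7 were picked by those tests, and the interactions of 6 of them are given as a description. Each interaction contains the EMPA estimate that picked its gene, which the picking raises. Its value and interval are thus biased toward a larger effect in the genotype with the call. Srebf1, the regulator of fatty acid synthesis, rose by 0.65 in WT (adjusted p = 0.0236 in edgeR) and was at 0.45 in R403Q, with an interaction of -0.20 (-0.49 to 0.09), or -0.10 without WT-EMPA replicate 5. Man1c1, a Golgi mannosidase, rose by 0.42 in WT with 0.39 in R403Q, and its interaction of -0.04 (-0.26 to 0.18) had an interval narrower than the median gene. Also called in WT were Ttc7, with 0.50 in WT, 0.17 in R403Q and an interaction of -0.33 (-0.58 to -0.08), and Btnl9, with 0.70 in WT, 0.39 in R403Q and an interaction of -0.31 (-0.64 to 0.02). Of 21 fits that left out 1 mouse, the WT call was lost in 16 for Man1c1, 12 for Ttc7, 8 for Btnl9 and 5 for Srebf1.

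In R403Q hearts the genes called for EMPA were Tmem64 and Gbp10. Each of these calls was lost in 5 of the 21 fits that left out 1 mouse. Tmem64, a membrane protein with a role in calcium signalling, was at 51.9 to 55.1 CPM in WT-CD, 56.6 to 62.6 in WT-EMPA, 44.4 to 54.2 in R403Q-CD and 58.7 to 63.5 in R403Q-EMPA. The diets did not overlap in either genotype. It rose by 0.35 in R403Q (edgeR adjusted p = 0.0187), the effect in WT was 0.17, and the interaction was 0.18 (0.02 to 0.34). Gbp10, a guanylate-binding protein induced by interferon gamma, rose by 1.80 in R403Q (edgeR adjusted p = 0.0187), was at 0.98 in WT and had an interaction of 0.82 (-0.01 to 1.64). All 7 called genes had the same sign in the other genotype, and a call in 1 genotype alone is not evidence that the genotypes differ. Gbp10 and its neighbour Gbp6, with an interaction of 0.54 (0.08 to 0.99), belong to a family of closely similar genes, so reads may be split between them.

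The genes named next are, in each direction, the 12 with the smallest interaction p among genes with a mean of at least 1 CPM. Their estimates are raised by that choice, their adjusted p was 0.999 in edgeR throughout, and they are given as a description. The positive genes ran from 0.25 to 0.53 with unadjusted p from 0.000366 to 0.00715 in edgeR, and the negative genes from -0.22 to -2.01 with unadjusted p from 0.00045 to 0.00558. In each direction 11 of the 12 had EMPA effects of opposite sign in the 2 genotypes, as had 481 of all 567 genes at an unadjusted p under 0.05 (84.8%), a pattern that choosing by the difference favours. All 12 positive and all 12 negative genes kept their sign with cage as a block.

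Nr4a3 (ENSMUSG00000028341, chr4:48045153-48086447, plus strand, GRCm38) was the negative gene with the smallest p. It encodes an orphan nuclear receptor of the NR4A family, immediate-early genes that adrenergic and cAMP signals induce within minutes in muscle. Its levels were 9.73, 6.56, 8.29, 6.49 and 11.5 CPM in WT-CD and 5.65, 17.7, 7.17, 20.3 and 11.9 CPM in WT-EMPA. In R403Q-CD they ran from 5.63 through a median of 15.2 to 21.3 CPM, and in R403Q-EMPA they were 4.08, 5.29, 5.19 and 5.13 CPM. The 4 R403Q-EMPA mice were tightly grouped and below every other mouse, while the other groups spread widely. The EMPA effect was -1.45 in R403Q and 0.56 in WT, and the interaction was -2.01 (SE 0.486, 95% interval -3.02 to -1.0). It was -2.25 with cage as a block and -1.96 without R403Q-CD replicate 2.

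The 2 other NR4A genes were looked at after that value was seen. Nr4a2 was at 0.509 to 1.35 CPM in WT-CD, 0.805 to 1.92 in WT-EMPA, 0.883 to 2.42 in R403Q-CD and 1.02 to 1.63 in R403Q-EMPA, with an interaction of -0.93 (-1.79 to -0.08). Nr4a1 was at 15.2 to 49.1 CPM in WT-CD, 15.6 to 38 in WT-EMPA, 14.8 to 83.8 in R403Q-CD and 10.1 to 17.6 in R403Q-EMPA, with an interaction of -0.84 (-1.97 to 0.29), or -0.48 without R403Q-CD replicate 6, the mouse at 83.8 CPM. All 3 had negative interactions, but the groups of Nr4a1 and Nr4a2 overlapped, and the EMPA effect in WT was negative for Nr4a1 (-0.47) and positive for Nr4a2 (0.65). Because the 3 genes share the sign and are textbook targets of CREB, the factor that binds the cAMP response element, the bases upstream of their RefSeq starts are shown, from build GRCm38.p6 and 5′ to 3′ on the gene's strand. Nr4a1 covers chr15:101266596-101266845 (plus strand), Nr4a2 chr2:57124004-57124253 (minus strand) and Nr4a3 chr4:48045055-48045152 (plus strand), the last ending where a GENCODE exon of the gene begins. Capitals mark TGACG, the core of the element, on either strand (CGTCA on the other).

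Nr4a1: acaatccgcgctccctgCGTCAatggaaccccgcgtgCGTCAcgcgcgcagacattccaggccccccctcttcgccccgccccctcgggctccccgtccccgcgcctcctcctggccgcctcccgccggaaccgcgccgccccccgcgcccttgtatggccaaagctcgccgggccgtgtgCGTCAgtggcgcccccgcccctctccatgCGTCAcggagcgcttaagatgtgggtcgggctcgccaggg
Nr4a2: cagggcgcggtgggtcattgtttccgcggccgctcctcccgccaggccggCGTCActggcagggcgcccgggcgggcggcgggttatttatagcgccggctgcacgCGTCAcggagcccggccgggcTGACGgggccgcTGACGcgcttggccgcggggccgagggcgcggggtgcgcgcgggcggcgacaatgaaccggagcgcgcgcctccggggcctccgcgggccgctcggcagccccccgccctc
Nr4a3: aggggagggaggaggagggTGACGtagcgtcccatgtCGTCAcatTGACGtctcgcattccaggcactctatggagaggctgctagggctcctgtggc

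Each of the 3 windows of 250 bases held 4 matches to TGACG or CGTCA, 3 of them in the 98 bases shown for Nr4a3. Of 32851 RefSeq promoters cut to the same length, 0.137% held at least 4 matches and 17.8% at least 1. The full palindrome TGACGTCA was in 1.55% of promoters and in none of these 3 windows. The 3 genes were picked as known CREB targets after their values were seen, so the choice fixed that such letters would be found, and nothing about the interaction is read from them. No binding was measured. Over the immediate-early list of 24 genes the median interaction was -0.26. Of these genes 16 were negative, 2 of them at an unadjusted p under 0.05, and 8 positive, 1 of them at that level (1.82% and 1.46% of all genes). That median was -0.10 without R403Q-CD replicate 6, -0.14 without WT-EMPA replicate 5, -0.16 without R403Q-CD replicate 2, -0.17 without R403Q-EMPA replicate 1, -0.39 without WT-EMPA replicate 2 and -0.47 with only the cages that held both genotypes.

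Fsd1l, a protein with fibronectin type III and SPRY domains, had an interaction of -0.61 (SE 0.147, -0.91 to -0.30). Its levels were 77.7 to 96.1 CPM in WT-CD, 96.5 to 109 in WT-EMPA, 91.3 to 145 with a median of 98.8 in R403Q-CD and 68.6 to 88.2 in R403Q-EMPA. The diets did not overlap within either genotype and lay in opposite order. Zfyve16, an endosomal adaptor, had the interaction nearest 0 of the 12, -0.22, with a small SE of 0.0661. All 4 R403Q-EMPA mice, at 25.1 to 27 CPM, lay below the other groups, which began at 28.4 CPM. Picalm, which assembles clathrin coats, was at 208 to 232 CPM in R403Q-EMPA, against 236 to 354 in R403Q-CD, 249 to 277 in WT-CD and 258 to 313 in WT-EMPA, and its interaction was -0.41 (-0.67 to -0.14). In these 3 genes, as in Nr4a3, the R403Q-EMPA mice gave the lowest values, though for Fsd1l they overlapped WT-CD.

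The remaining negative genes had these values. Dcun1d3, which regulates cullin neddylation, had an interaction of -0.45 (-0.71 to -0.19). Hecw2, a ubiquitin ligase, stood at -0.43 (-0.70 to -0.15), and Lnx2, a ligase that binds Numb, at -0.74 (-1.25 to -0.24). Ube2ql1, a protein with the fold of a ubiquitin-conjugating enzyme, had -0.72 (-1.20 to -0.24), and Jade2, a scaffold of the HBO1 acetyltransferase complex, had -0.38 (-0.63 to -0.13). The last 3 were Slit2, a secreted guidance cue, at -1.0 (-1.68 to -0.33), Cfap69, a protein of cilia and flagella, at -0.99 (-1.62 to -0.35), and the zinc finger gene Zfp990 at -0.58 (-0.96 to -0.20). In 11 of the 12 negative genes the R403Q effect on CD was positive, and in all 12 the R403Q effect on EMPA was negative.

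Noc4l (ENSMUSG00000033294, chr5:110648418-110653417, minus strand, GRCm38) led the positive genes. It is a nucleolar factor in the making of the small ribosomal subunit. Its levels were 14.4, 15, 14.5, 14 and 14.2 CPM in WT-CD and 13.5, 13.4, 12, 13.3 and 10.7 CPM in WT-EMPA. In R403Q-CD they ran from 11.7 through 13 to 13.8 CPM, and in R403Q-EMPA they were 14.4, 14.8, 14.6 and 16.5 CPM. The diets did not overlap within either genotype and lay in opposite order, so that R403Q-EMPA mice were in or above the WT-CD range. The EMPA effect was 0.22 in R403Q and -0.20 in WT, and the interaction was 0.41 (SE 0.0975, 0.21 to 0.61). Rrp36, a factor needed for early cleavages of precursor ribosomal RNA in the same pathway, stood at 0.30 (0.11 to 0.49), with 12.9 to 14.2 CPM in WT-EMPA against 14.8 to 16.1 in WT-CD and overlapping diets in R403Q.

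Tmem47, a membrane protein of cell junctions encoded on chrX, was, with Ogfod3, 1 of the 2 positive genes called for R403Q on CD. It was at 39.5 to 55.8 CPM in WT-CD, 42.4 to 49.6 in WT-EMPA, 30.1 to 35.8 in R403Q-CD and 41.7 to 48.9 in R403Q-EMPA. The R403Q-CD mice were below every other mouse, and the other 3 groups shared a range. It fell by 0.40 on the log2 scale with R403Q on CD (edgeR adjusted p = 0.0166, or 0.0571 without WT-CD replicate 3) and differed by 0.02 on EMPA, and the interaction was 0.42 (0.18 to 0.67). Ogfod3, which fell by 0.28 on CD (edgeR adjusted p = 0.0226, but 0.0599 to 0.0733 without WT-CD replicate 1, 3 or 4, 0.0599 without R403Q-CD replicates 2 and 5 and 0.0542 with library size alone) and had an interaction of 0.27 (0.09 to 0.45), had a like arrangement with overlap, at 13.4 to 14.9, 13.1 to 14.7, 11.1 to 13.3 and 12.5 to 14.3 CPM in the same order of groups.

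The other positive genes came from diverse processes. Schip1, a partner of the tumour suppressor merlin, had the highest value of the 12 at 0.53 (0.24 to 0.82), with 18 to 21.1 CPM in WT-CD, 14.5 to 17.6 in WT-EMPA, 12.7 to 21.7 in R403Q-CD and 18.8 to 21 in R403Q-EMPA. Topbp1, a scaffold of the replication checkpoint, stood at 0.28 (0.12 to 0.44), and Pard6a, a polarity protein, at 0.34 (0.10 to 0.58). Bcs1l, the chaperone that inserts the Rieske protein into respiratory complex III, had 0.32 (0.10 to 0.54). Eif2b1, a subunit of the exchange factor that restarts translation, had 0.26 (0.08 to 0.44), and Selenos, a selenoprotein of the endoplasmic reticulum, had 0.25 (0.09 to 0.41). Zbtb42 at 0.35 and Ubald2 at 0.37 completed the 12. In 11 of them the EMPA effect in WT was negative, and in all 12 it was positive in R403Q.

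**Figure D3:**
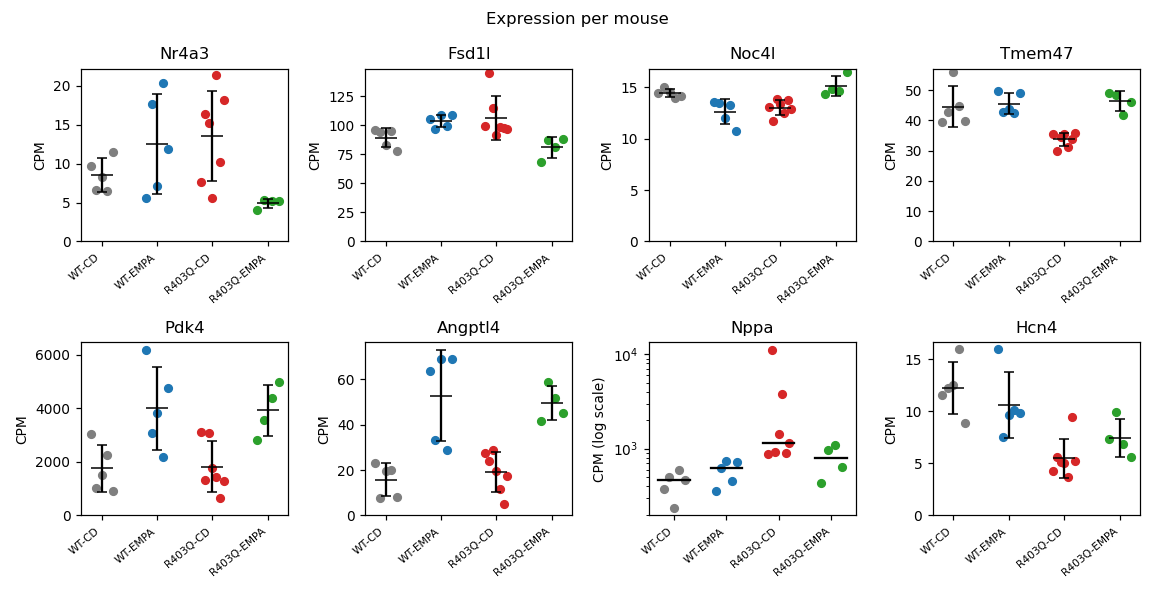
CPM of 8 genes in each mouse of the 4 groups, 1 panel per gene, with bars for the mean ± SD, except for Nppa, which has a logarithmic axis and a line at the median. Nr4a3 is low and tight in R403Q-EMPA, Tmem47 is low in R403Q-CD alone, Pdk4 and Angptl4 are higher on EMPA in both genotypes, and 1 R403Q-CD mouse sets the top of the Nppa panel at 10988 CPM.

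**Figure D4:**
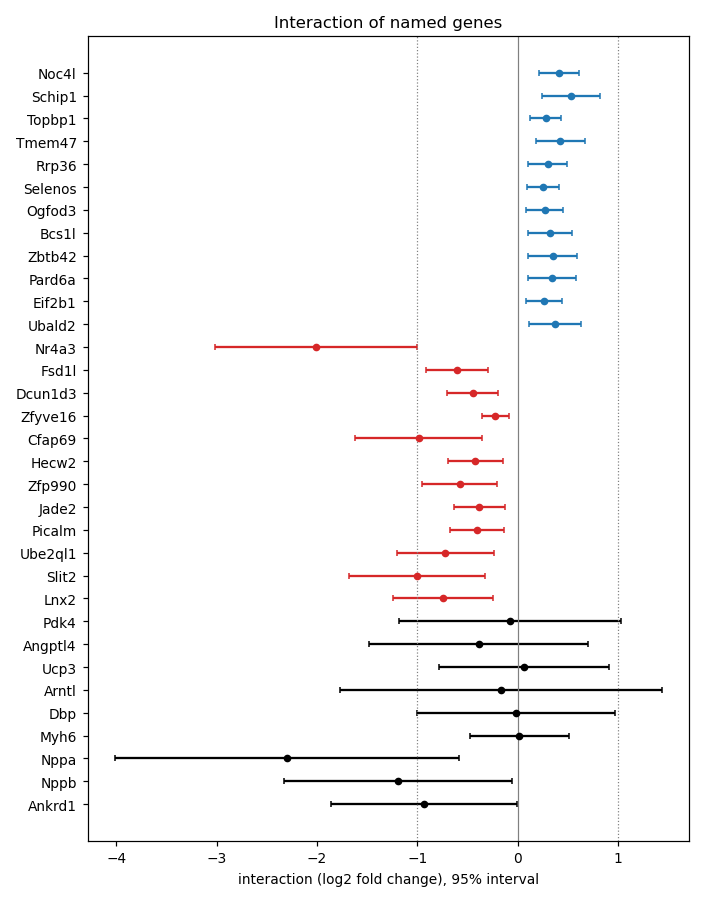
Interaction on the log2 scale (horizontal axis) with its 95% interval for the 24 genes with the smallest p and for 9 genes of fuel use, clock and stress, 1 row per gene. The intervals of the 24 chosen genes exclude 0 by construction, those of Pdk4, Angptl4, Ucp3, Arntl, Dbp and Myh6 span it, and that of Nppa is wide.

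Nppa, Nppb, Ankrd1 and Acta1, which mark hypertrophic stress, had negative estimates with wide intervals, and none passed the test for the interaction (edgeR). Nppa, the atrial natriuretic peptide precursor and a marker of wall stress, was at 238 to 595 CPM in WT-CD and 359.5 to 746 in WT-EMPA. In R403Q-CD it was 882 at the lowest, 1151 at the median and 10988 CPM at the highest, and in R403Q-EMPA it was 429, 972, 1089 and 636 CPM. Every R403Q-CD mouse was above every WT mouse, whereas R403Q-EMPA mice overlapped both. Nppa rose by 2.73 with R403Q on CD (edgeR adjusted p = 0.0248, and at most 0.0831 with 1 mouse left out, where WT-CD replicates 1 to 4 and R403Q-CD replicate 5 each ended the call) and by 1.80 without R403Q-CD replicate 2. On EMPA it was at 0.43, and the interaction was -2.30 (SE 0.826, -4.02 to -0.59). Without R403Q-CD replicate 2, the mouse at 10988 CPM, the interaction was -1.38.

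Nppb, the brain natriuretic peptide precursor, was at 62.4 to 168 CPM in WT-CD, 60.0 to 215 in WT-EMPA, 139 to 645 with a median of 182 in R403Q-CD and 90.2 to 151 in R403Q-EMPA. Its interaction was -1.19 (-2.33 to -0.06), and -0.79 without R403Q-CD replicate 2. Ankrd1, a titin-bound mechanosensor of the sarcomere, was at 1280.2 to 2134 CPM in WT-CD, 869 to 1806 in WT-EMPA, 1314 to 6662 in R403Q-CD and 969 to 1546 in R403Q-EMPA, with an interaction of -0.93 (-1.86 to -0.00), and -0.60 without that mouse. Acta1, the skeletal actin of the fetal programme, had -1.0 (-2.83 to 0.84), which was -0.06 without that mouse. In the natriuretic and fetal list 18 of 21 genes were negative, 3 at an unadjusted p under 0.05 (1.82% of all genes). The list median was -0.42, or -0.16 without R403Q-CD replicate 2. The summed atrial cardiomyocyte markers, which include Nppa, ran to 11743 CPM in R403Q-CD against at most 1172 in R403Q-EMPA and 792 in WT-CD, and their part in these values was not tested.

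For the myosins the interval of the interaction was narrower than for the stress genes. Myh6 was at 40598 to 46180.2 CPM in WT-CD, 40404 to 54644 in WT-EMPA, 17517 to 40779 in R403Q-CD and 31534 to 40961 in R403Q-EMPA, with an interaction of 0.01 (-0.48 to 0.51). Myh7, the slow beta-myosin, was at 2625 to 2949.9 CPM in WT-CD and 3018 to 6082 in WT-EMPA, and at 1902 to 2959 in R403Q-CD and 3109 to 3483 in R403Q-EMPA. All EMPA mice were above all CD mice of their genotype, with effects of 0.41 in R403Q and 0.65 in WT that did not pass the test (edgeR adjusted p = 0.256 and 0.126), and the interaction was -0.24 (-0.69 to 0.21), or -0.10 without WT-EMPA replicate 3 and -0.13 without WT-EMPA replicate 5. The 20 sarcomere genes had a median interaction of 0.06, with 14 positive and 0 at an unadjusted p under 0.05, and -0.01 with 10 positive without R403Q-CD replicates 2 and 5.

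Of 31 pathway lists, with 658 of 667 genes tested, 0 genes were called for the interaction and 26 (3.95%) had an unadjusted p under 0.05, against 3.28% of all genes. Genes of a list vary together across mice, so one-sided counts within a list are not independent observations. The most one-sided positive lists were mitochondrial. All 37 nuclear-encoded subunits of complex I, the entry point of the respiratory chain, had a positive interaction, from 0.09 to 0.30 with a median of 0.20, and none had an unadjusted p under 0.05. Their EMPA effect was 0.03 at the median in R403Q and -0.16 in WT, where 2 of 37 were positive. Ndufs7, for example, was at 368 to 439.6 CPM in WT-CD, 318 to 381 in WT-EMPA, 227 to 422 in R403Q-CD and 344 to 411 in R403Q-EMPA, with an interaction of 0.30 (-0.03 to 0.63).

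Mitochondrial ribosomal proteins, which translate the respiratory subunits encoded in the mitochondrion, were positive in 31 of 32 cases with a median of 0.16. Of them, 6 were positive at an unadjusted p under 0.05 (1.46% of all genes). Mrps18a was at 58.5 to 74.2 CPM in WT-CD, 53.6 to 62.4 in WT-EMPA, 46.9 to 70.2 in R403Q-CD and 64.5 to 69.5 in R403Q-EMPA, with an interaction of 0.35 (0.10 to 0.59). Mrpl21 had 0.33 (0.07 to 0.60). Enzymes of the TCA cycle were positive in 20 of 20 cases (median 0.15) and those of branched-chain amino acid breakdown in 19 of 21 (median 0.10). The pyruvate dehydrogenase list had a median of 0.10 with 10 of 14 positive, which was 0.02 with 8 positive without R403Q-CD replicate 2 and 0.02 with 7 positive without R403Q-CD replicates 2 and 5. All 8 cardiomyocyte markers had positive interactions too, with a median of 0.12, and summed to 95369 to 104616 CPM in WT-CD, 90920.9 to 105087 in WT-EMPA, 59685.6 to 96646.6 in R403Q-CD and 81825.8 to 94883.2 in R403Q-EMPA. In bulk tissue fewer cells of a type and less RNA per cell cannot be told apart, and the part of the cardiomyocyte share in these lists was not tested. Without R403Q-CD replicate 2, whose cardiomyocyte sum was the lowest, the medians were 0.13 for complex I, 0.12 for the mitochondrial ribosome, 0.06 for the TCA cycle and 0.02 for branched-chain amino acids, and with cage as a block they were 0.27, 0.21, 0.23 and 0.21. Without R403Q-CD replicates 2 and 5 they were 0.08 with 35 of 37 positive, 0.08 with 28 of 32, 0.02 with 13 of 20 and -0.04 with 8 of 21, so that branched-chain amino acid breakdown changed sides of 0. The cardiomyocyte markers then had a median of 0.03 with 5 of 8 positive.

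The most one-sided negative lists turned or shrank without the same mouse. Collagen genes had negative interactions in 20 of 21 cases with a median of -0.34, and without R403Q-CD replicate 2 the median was 0.24 with 17 positive. Col1a1, the chain of type I collagen, was at 35.8 to 116 CPM in WT-CD, 33.9 to 67 in WT-EMPA, 48.5 to 680.4 with a median of 79.8 in R403Q-CD and 41.5 to 143 in R403Q-EMPA. Its interaction of -0.62 (-2.36 to 1.12) became 0.32 without that mouse, and that of Col3a1, -0.81 (-2.75 to 1.13), became 0.39. Matrix and crosslinking genes had a median of -0.33 with 26 of 29 negative, and 0.07 with 17 positive without the mouse. Ccn2, a matricellular growth factor induced by TGF-beta and stretch, kept its sign, at -1.07 (-2.10 to -0.04), or -0.84 without it. Interferon-stimulated genes had a median of -0.34 with 25 of 26 negative, and -0.09 without it. Usp18, the deubiquitinase-like brake on interferon signalling, was at 2.13 to 8.93 CPM in R403Q-CD against 1.44 to 2.51 in R403Q-EMPA, with an interaction of -1.01 that was -0.59 without it.

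**Figure D5:**
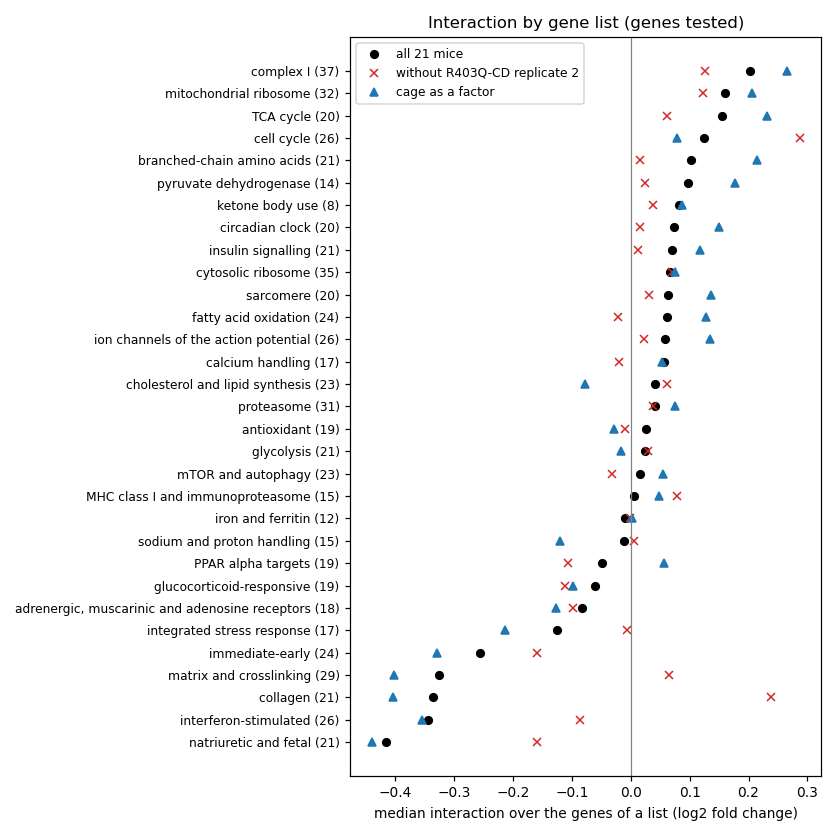
Median interaction on the log2 scale (horizontal axis) of each of 31 gene lists (rows) with all mice, without R403Q-CD replicate 2 and with cage as a block. Collagen and matrix lists change sides of 0 when that mouse is left out, and complex I and mitochondrial ribosome stay positive in all 3 settings.

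Transport, conduction and receptor genes were examined as places where an SGLT2 inhibitor or the mutation might act. Slc5a1, which encodes SGLT1, the cotransporter that the heart does express, was at 1.29 to 2.69 CPM in WT-CD, 1.47 to 3.04 in WT-EMPA, 0.476 to 1.55 in R403Q-CD and 1.13 to 2.51 in R403Q-EMPA, and its interaction was 0.46 (-0.39 to 1.31), or 0.27 without WT-CD replicate 4, 0.30 without R403Q-CD replicate 2 and 0.31 without R403Q-EMPA replicate 1. Over 15 genes of sodium and proton handling the median was -0.01, with 2 negative genes at an unadjusted p under 0.05 (1.82% of all genes). The monocarboxylate transporters, which carry lactate and ketone bodies, lay on opposite sides. Slc16a1 was at 258 to 345 CPM in R403Q-EMPA against 313 to 387 in R403Q-CD, 305 to 409 in WT-CD and 331 to 403.1 in WT-EMPA, with an interaction of -0.29 (-0.55 to -0.04). Slc16a7 was at 23.1 to 32.5 CPM in R403Q-EMPA against 7.59 to 27.1 in R403Q-CD, 12.1 to 21.5 in WT-CD and 13.6 to 17.9 in WT-EMPA, with an interaction of 0.69 (0.06 to 1.3). In both transporters the EMPA effect in WT was 0.00 in size, so the values came from the R403Q mice.

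Among 26 ion channel genes of the action potential, 20 had a positive interaction, with a median of 0.06. That median was 0.02 with 15 positive without R403Q-CD replicate 2, and -0.04 with 11 positive without R403Q-CD replicates 2 and 5. R403Q on CD had a median of -0.27 with 5 called (1.44% of all genes were called in that comparison). Hcn4, the pacemaker channel, was at 8.87 to 15.9 CPM in WT-CD, 7.49 to 16 in WT-EMPA, 3.66 to 9.43 in R403Q-CD and 5.64 to 9.91 in R403Q-EMPA. It fell by 1.15 on the log2 scale with R403Q on CD (edgeR adjusted p = 0.0109), was at -0.51 on EMPA, and had an interaction of 0.65 (-0.01 to 1.30). Cacna1g, a T-type calcium channel, fell by 0.94 on CD (edgeR adjusted p = 0.00424), was at -0.64 on EMPA, and had an interaction of 0.30 (-0.18 to 0.79). Kcnq1, a repolarizing potassium channel, stood at 0.27 (0.02 to 0.53). Of the receptor list, Grk5, a kinase that desensitizes adrenergic receptors, had -0.73 (-1.28 to -0.18) and Rgs2, a brake on G protein signalling, had -0.55 (-0.97 to -0.14), with a list median of -0.08. Akt1, the kinase downstream of insulin, had 0.36 (0.04 to 0.69), in a list of 21 insulin signalling genes with a median of 0.07, which was 0.01 without R403Q-CD replicate 2 and -0.01 without R403Q-EMPA replicate 4.

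Ftl1, the light chain of the iron store ferritin, was called for R403Q on both diets. It was at 116 to 143 CPM in WT-CD, 111 to 129 in WT-EMPA, 147 to 174 in R403Q-CD and 154 to 194 in R403Q-EMPA. No R403Q mouse overlapped a WT mouse. It rose by 0.33 on CD (edgeR adjusted p = 0.0232) and by 0.62 on EMPA (adjusted p = 0.00126 in edgeR), and the interaction was 0.29 (0.08 to 0.50). The EMPA call was lost with cage as a fixed block, at 0.69 (edgeR adjusted p = 0.0671), and with only the cages that held both genotypes (edgeR adjusted p = 0.0589). In both settings the WT side of R403Q on EMPA rests on WT-EMPA replicates 4 and 5 alone, here and for Chrm2 below. The CD call was lost without any 1 of WT-CD replicates 1 to 4, with the highest edgeR adjusted p at 0.0772. It was also lost without R403Q-CD replicates 2 and 5 (edgeR adjusted p = 0.0611). Its near copy Ftl1-ps1 can take or give reads, so the level is uncertain. Hmox1, which frees iron from haem, had an interaction of 0.95 (0.13 to 1.78), with 40.1 to 83.8 CPM in R403Q-EMPA against 19 to 63.9 in WT-EMPA, 20.3 to 50.1 in WT-CD and 33.6 to 51.9 in R403Q-CD. In the other direction Chrm2, the muscarinic receptor of the heart, fell by 0.34 on CD and by 0.58 on EMPA (edgeR adjusted p = 0.0464 and 0.0183), with an interaction of -0.24 (-0.51 to 0.03). Its EMPA call was lost with cage as a fixed block (edgeR adjusted p = 0.16), with only the cages that held both genotypes (edgeR adjusted p = 0.142) and without R403Q-EMPA replicate 1, 2 or 3 or WT-EMPA replicate 5 (edgeR adjusted p up to 0.134). Its CD call was lost in 12 of the 21 fits that left out 1 mouse, without R403Q-CD replicates 2 and 5, with library size alone, with limma voom and with only the cages that held both genotypes. Ftl1 and Chrm2 had a stronger estimate on EMPA than on CD, though Chrm2's interval included 0.

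Among markers of other cell types, 2 lists with small sums stood wholly on 1 side. All 6 mesothelial markers had negative interactions with a median of -2.42, 3 of them at an unadjusted p under 0.05 (1.82% of all genes). They summed to 6.88 to 25.6 CPM in WT-CD, 5.18 to 28.6 in WT-EMPA, 8.95 to 69.6 in R403Q-CD and 7.76 to 25.2 in R403Q-EMPA. Msln, their defining surface protein, was at 0.0364 to 3.39 CPM in R403Q-EMPA and 1.28 to 15.2 in R403Q-CD, with an interaction of -2.89 (-5.38 to -0.40). All 6 neutrophil markers were negative with a median of -1.34, and summed to 2.41 to 12.3 CPM in WT-CD, 9.68 to 52.7 in WT-EMPA, 4.16 to 11.4 in R403Q-CD and 6.17 to 31.6 in R403Q-EMPA. Among the other lists the atrial cardiomyocyte markers had a median of -1.80 over 6 genes, which was -0.23 without R403Q-CD replicate 2. Markers of white and brown adipocytes stood at 0.65 over 7 genes, and at -0.40 with cage as a block. Those of smooth muscle and pericytes stood at -0.27, or 0.05 without R403Q-CD replicates 2 and 5. The remaining medians were -0.10 for lymphocyte, -0.06 for Schwann cell and neuron, -0.04 for fibroblast, 0.04 for skeletal muscle, 0.05 for endothelial, 0.07 for macrophage and 0.07 for erythroid markers. Some of these changed sides of 0. Lymphocyte was 0.35 with cage as a block. Without R403Q-CD replicate 2, fibroblast was 0.10, Schwann cell and neuron 0.01 and erythroid -0.01. For EMPA itself, 6 of the 6 erythroid markers in R403Q and 5 in WT were positive at an unadjusted p under 0.05 (7.06% and 5.94% of all genes), though 0 were called by edgeR. Their sum was 706.5 to 1280.3 CPM in WT-CD, 1236 to 2005 in WT-EMPA, 877 to 1717 in R403Q-CD and 1214 to 2660.3 in R403Q-EMPA.

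Read the other way, the interaction is the genotype effect on EMPA minus that on CD. R403Q on CD called 250 genes (1.44% of those tested), 153 higher (0.884%) and 97 lower (0.56%), and R403Q on EMPA called 10 (0.0578%), 6 higher (0.0347%) and 4 lower (0.0231%). Of the 250, 244 (97.6%) had the same sign on EMPA, where no mouse is shared, with a median effect in the CD direction of 0.58 on CD and 0.36 on EMPA. The CD median is raised by the choice of genes. Of those 250, 48 had an unadjusted interaction p under 0.05, but that p shares the CD mice that chose them, and for 177 the interval of the interaction lay within 2-fold. Over all 17309 genes the 2 genotype effects had a Pearson correlation of 0.45, a Spearman correlation of 0.52 and the same sign in 71.1% of cases. R403Q on EMPA rested on 4 against 5 mice and R403Q on CD on 7 against 5, so the counts of 10 and 250 are not a measure of how much the genotype effect differed between diets. Without R403Q-CD replicate 2, R403Q on EMPA called 201 genes and R403Q on CD 243. With cage as a fixed block the counts moved the other way, to 0 on EMPA and 1128 on CD, and with only the cages that held both genotypes they were 0 and 156. In both settings the WT side of R403Q on EMPA rests on WT-EMPA replicates 4 and 5 alone, so the 0 calls come from a smaller comparison.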

How the data were processed

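Left ventricular poly(A) RNA from 21 mice was sequenced in pairs. Per the labels and methods, the authors aligned reads to mm10 with STAR 2.6.0c and counted unique pairs per Ensembl gene with featureCounts of Subread 1.6.2. The deposited read counts of whole numbers were the input here, and the deposited log2 values, variance-stabilized by the authors with DESeq2, entered 1 alternative. No sample column was left out. Symbols came from GENCODE M21 (55190 matched).

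Genes passing edgeR 4.0.16's filter (minimum count 10) were fitted with TMM scaling and a quasi-likelihood model of the 4 group means in R 4.3.3. The interaction was 1 contrast of that model, with Benjamini-Hochberg adjustment over 17309 genes, standard errors from F and 95% intervals. The common biological coefficient of variation was 16.6%. CPM was computed from the counts with TMM factors and no pseudocount. DESeq2 1.42.0, limma 3.58.1 and other filters, scalings, blocks and mouse sets were alternatives, and the fits were tested on simulated data. A count of 0 allows up to 3 counts, or 0.0689 to 0.128 CPM. The components were fitted on all mice, so leaving out 1 mouse changes the spread of every comparison.

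Named genes were, in each direction, the 12 with the smallest interaction p at a mean of at least 1 CPM and a settled symbol, the 2 members of each list with the smallest p, and a set of genes of interest. Nr4a1, Nr4a2, Chrm2, Psca, Crip3 and the genes called for EMPA in 1 genotype were added after their values were seen. The members and lists were chosen with earlier results of these data known. Some genes that meet these rules are not reported here.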

Additional observations from a re-analysis of the deposited data

Results flagged for a closer look

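In 288 groups of 4 to 7 mice examined for a single distant mouse, 35 had a highest or lowest value separated from the nearest other by more than Dixon's 95% limit, where chance gives about 1 in 20. Of these, 8 concerned R403Q-CD replicate 2. It had a median Spearman correlation of 0.968 with the other libraries (next lowest 0.986) and stood highest in Nppa (10988 CPM, next 3824), Nppb (645, next 317), Acta1 (3642, next 1041), Col1a1 (680.4, next 201), Col3a1 (1548, next 324), Usp18 (8.93, next 3.79) and Hecw2 (59.1, next 47.5).

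Among the other R403Q-CD mice, Ogfod3 had 13.3 CPM in replicate 4 (next 11.8) and Pard6a 6.55 (next 5.93). Hcn4 had 9.43 CPM in replicate 6 (next 5.56) and Nr4a1 had 83.8 (next 43). The mesothelial genes Msln and Upk1b had 15.2 and 5.48 CPM in replicate 5 (next 6.55 and 1.70). Psca had 37.3 CPM in replicate 3 (next 9.84).

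In R403Q-EMPA, replicate 1 was low for Nr4a3 (4.08 CPM, next 5.13) and Ccn2 (177, next 363) and high for Pard6a (6.85, next 6.24) and Dcun1d3 (14.2, next 13.2). Replicate 2 was high for Zfp990 (3.96, next 2.92) and Col3a1 (245, next 97.6) and low for Ftl1 (154, next 187). Replicate 4 was high for Ubald2 (13.4, next 10.3).

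In WT-EMPA, replicate 5 was high for Zfyve16 (30.3 CPM, next 28.8), Picalm (313, next 263), Grk5 (78.3, next 55) and Chrm2 (231, next 191). Replicate 1 was high for Hmox1 (63.9, next 29.9) and Myh6 (54644, next 44130.5). Replicate 3 was low for Zbtb42 (7.0, next 7.49), high for Crip3 (0.863, next 0.527), and had the fewest counts of its group at 30558067 (next 35445239). Replicate 4 was high for Bcs1l (27.4, next 25.5). In WT-CD, Usp18 had 2.57 CPM in replicate 5 (next 1.53) and Myh7 had 2625 in replicate 3 (next 2884).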

How the results depend on the processing

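The count of called interactions was 0 under every alternative run, including 0 with each mouse left out, and the number at an unadjusted p under 0.05 was 438 to 778 with a mouse left out and 1363 with no filter on low counts. The cause of the changes below was not tested beyond what each alternative leaves out. Leaving out R403Q-CD replicates 2 and 5 together, and keeping only cages with both genotypes, were chosen after seeing the data. Replicate numbers follow accession order and pair no mice, so genotypes were compared within cages by cage as a block, which the EMPA effects do not allow because no cage held both diets. Of 31 list medians, 7 changed sides of 0 without R403Q-CD replicate 2, 11 without R403Q-CD replicates 2 and 5 and 5 with cage as a fixed block, and 14 changed sides with some single mouse left out. With a mouse left out the ranges were -0.0422 to 0.0832 for calcium handling, -0.0961 to 0.0236 for sodium and proton handling, -0.0221 to 0.12 for fatty acid oxidation, -0.0187 to 0.0799 for glycolysis, -0.0311 to 0.0494 for mTOR and autophagy, -0.00629 to 0.0835 for cholesterol and lipid synthesis, -0.0358 to 0.0721 for antioxidant genes, -0.0322 to 0.0387 for iron and ferritin, -0.11 to 0.10 for MHC class I, 0.0105 to 0.12 for the clock, 0.0137 to 0.13 for the sarcomere, -0.14 to -0.0199 for receptors and -0.11 to -0.00695 for glucocorticoid-responsive genes.

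Numbers after a group name are replicates. EMPA in R403Q (2 calls) gave 151 with DESeq2, 5 with library size alone, 4 with limma voom, 6 at a mean of at least 1 CPM, 5 with robust dispersion, 1 without R403Q-CD replicates 2 and 5 and 0 with both-genotype cages. With a mouse left out it gave 0 to 12 (0 without R403Q-CD 5 or 7 or R403Q-EMPA 2 or 3, 1 without R403Q-EMPA 1, 4 without WT-CD 3, 7 without R403Q-CD 6, 12 without R403Q-CD 1). EMPA in WT (5) gave 110 with DESeq2, 33 without replicates 2 and 5, 1 with cage as a random block and 0 with library size alone, and 0 to 12 with a mouse left out (0 without WT-CD 1, 3 or 5 or WT-EMPA 3 or 5, 1 without WT-CD 2 or R403Q-EMPA 2 or 3, 2 without WT-CD 4, WT-EMPA 4 or R403Q-CD 7, 3 without WT-EMPA 2, 12 without R403Q-CD 2).

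R403Q on CD (250, 61.2% higher) gave 982 with DESeq2, 1128 with cage as a fixed and 475 as a random block, 156 with both-genotype cages, 103 without replicates 2 and 5 and 352 with library size alone (77.8% higher). With a mouse left out it gave 31 to 1045 (424, 1045 and 87 without R403Q-CD 1, 3 and 5, and 36, 77, 31 and 54 without WT-CD 1, 2, 3 and 4). R403Q on EMPA (10, 60% higher) gave 304 with DESeq2 (46.7% higher), 330 without replicates 2 and 5, 0 with cage as a fixed block and 0 with both-genotype cages, 13 with library size alone (76.9% higher), and 1 to 201 with a mouse left out (201 and 31 without R403Q-CD 2 and 3, 1, 6, 5 and 6 without R403Q-EMPA 1, 2, 3 and 4, and 6, 64 and 6 without WT-EMPA 2, 3 and 5).

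The correlation of the EMPA effects (0.36) was 0.0395 with no filter and 0.268 to 0.403 with a mouse left out. That of the genotype effects (0.45) was 0.326 with both-genotype cages, 0.617 on variance-stabilized values, 0.604 at a mean of at least 1 CPM, 0.0484 with no filter and 0.366 to 0.474 with a mouse left out.

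Of 70 genes followed, 9 changed sign somewhere and 0 passed the threshold anywhere. Without replicates 2 and 5, Acta1 was 0.31, Myh6 -0.15, Col1a1 0.70, Col3a1 0.76 and Ucp3 -0.14. Pdk4 was 0.12 with cage as a fixed block, 0.0237 as a random block, 0.13 with both-genotype cages, 0.00184 on variance-stabilized values and 0.0108 in limma voom, where Arntl was 0.24, 0.0721, 0.24, 0.00906 and 0.0329. Dbp was 0.0121 and 0.0129 in the last pair. With a mouse left out the ranges were -0.10 to 0.0921 for Myh6, -1.12 to 0.32 for Col1a1, -1.39 to 0.39 for Col3a1, -0.37 to 0.13 for Pdk4, -0.22 to 0.21 for Ucp3, -0.27 to 0.22 for Dbp, -0.64 to 0.16 for Arntl and -0.10 to 0.0400 for Man1c1.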

Other observations

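The remaining pathway lists had interaction medians from -0.13 to 0.12. Cytosolic ribosomal proteins were positive in 25 of 35 cases with a median of 0.07, and proteasome subunits in 25 of 31 with a median of 0.04. Cell cycle genes had a median of 0.12, or 0.29 without R403Q-CD replicate 2 and -0.03 without WT-CD replicate 5, while both EMPA effects were negative at the median, -0.35 in R403Q and -0.49 in WT. Calcium handling stood at 0.06, glycolysis at 0.02, mTOR and autophagy at 0.02, cholesterol and lipid synthesis at 0.04 and MHC class I with the immunoproteasome at 0.00, and each of these 5 medians changed sides of 0 when some single mouse was left out. The integrated stress response list stood at -0.13, or -0.01 without R403Q-CD replicate 2 and 0.05 without R403Q-CD replicates 2 and 5, and glucocorticoid-responsive genes at -0.06, with EMPA medians of -0.32 in R403Q and -0.19 in WT. None of these lists held a gene called for the interaction in edgeR.

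Among low-abundance genes, Crip3, a LIM-domain protein, was at 0.17 to 0.482 CPM in WT-CD, 0.431 to 0.863 in WT-EMPA, 0.585 to 2.73 in R403Q-CD and 0.387 to 0.601 in R403Q-EMPA, an interaction of -2.57 (-3.69 to -1.44) with an edgeR adjusted p of 0.912. It rose by 2.39 with R403Q on CD (edgeR adjusted p = 0.00279) and was at -0.18 on EMPA. Psca, a surface protein of epithelia, was at 1.46 to 37.3 CPM in R403Q-CD and 0.62 to 2.1 in R403Q-EMPA, with an interaction of -3.16 (-5.43 to -0.89), or -2.09 without R403Q-CD replicate 3. Both were picked after their values were seen.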
